A study of Bos taurus with 3 samples.

Results

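The miR-2284 and miR-2285 families are groups of mature miRNAs annotated in cattle. Members were taken by name from the deposited count table: every mature name that begins with miR-2284 or miR-2285 was kept, whatever its letters, copy number or arm and whether or not it had counts. This gave 63 of the 793 mature names, 31 of them miR-2284 and 32 miR-2285. They filled 115 of the 919 rows, because the table holds a row for each mature name on each precursor hairpin, and they lay on 101 hairpins. The study sequenced small RNA from large dense-core vesicles, the organelles in which chromaffin cells of the adrenal medulla store catecholamines and peptides. The vesicles were purified from chromaffin cells of slaughterhouse cattle (Bos taurus). The series held 3 libraries of such vesicle RNA, of which 2 were labelled technical replicates (replicate 1, called T1 below, and replicate 2, called T2) and 1 a biological replicate (called B), and no treatment, genotype, age or animal number was given for any of them. Whole cells and other fractions were not analysed here, so the values describe the purified material and show no enrichment over the cell.

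A miRNA is cut from a hairpin precursor, whose 5' or 3' arm gives the mature strand of about the same length in every miRNA. The mature strand is loaded into an Argonaute protein and guides it to messenger RNAs, mostly through the bases near its 5' end called the seed. The miR-2284 and miR-2285 families are known as a large, ruminant-specific set of closely alike hairpins scattered over the genome, and the targets of most members are little studied. Because copies are alike in sequence, a short read can match several hairpins, and so the rows of the table are given below beside the values by mature name. Mature sequences were not used here, so members could not be grouped by seed.

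With each mature name taken from its highest row, T1 summed to 5546771 counts, T2 to 6251664 and B to 6708654. Wherever a member has 3 values they stand in the order T1, T2, B. Levels are given in CPM, each count scaled to these totals. A count of 0 allows up to 3 counts, which is 0.541, 0.480 and 0.447 CPM. No molecular identifiers are named, so that intervals and such limits hold for counting error alone. The technical pair was averaged and counted as 1 preparation, so that each mean ± SD is over n = 2 preparations. The labelled cell type was checked on miR-375 and miR-7, known from endocrine cells, which together took 44.1%, 42.8% and 47.3% of the counts. Lists of miRNAs known from other cells held less, at 1.68%, 1.89% and 1.02% for smooth muscle and fibroblasts, and at 0.0281%, 0.0280% and 0.0123% for leukocytes. The endothelial list had 0.182%, 0.189% and 0.113%, and the erythrocyte list 0.0898%, 0.0837% and 0.110%. The hepatocyte miRNA miR-122 was at 0.0001% or less. The part of these cells in the results below was not tested.

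Together the families were a minor part of the vesicle RNA. Their summed share was 0.0683% of the T1 counts (exact Clopper-Pearson 95% interval 0.0662 to 0.0705%), 0.0742% of those of T2 (0.0721 to 0.0764%) and 0.0642% of those of B (0.0623 to 0.0662%). The mean was 0.0678% ± 0.0050 (SD, n = 2). The biological library was the lowest, and its interval met that of T1 at 0.0662%. The technical libraries themselves had intervals that did not overlap. miR-2285 names held more than miR-2284 names, with 0.0447% ± 0.0041 against 0.0231% ± 0.0009 (both SD, n = 2). In these preparations, fewer cells or vesicles that hold a miRNA and less of it in each cannot be told apart. The share was 0.112% when miR-375, which dominates the libraries, was left out of the total. Names with identical counts each enter these sums, and the mean share was 0.0584% when such names were counted once.

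Read support divided the families by name. At least 10 counts in every library were reached by 20 of the 32 miR-2285 names (62.5%) but by 7 of the 31 miR-2284 names (22.6%), which made 27 of 63 (42.9%). Over all 793 mature names of the table the share was 43.3%. Of the other miRNAs annotated with high numbers, those from miR-2286 to miR-2489 reached it in 17 of 241 cases (7.05%) and those from miR-2881 upward in 21 of 93 (22.6%). These shares are descriptions and were not tested against each other. Of the miR-2284 names, miR-2284h-5p and miR-2284aa reached 10 counts in every library only on hairpins of another name, described below. The 27 members became 25 on hairpins of the same name only, and 25 with identical names counted once. The miR-2284 names were mostly present at a few reads, since 16 had counts that stayed under 10 in each library and 7 had none. Among miR-2285 names, 4 stayed under 10 and 6 had none. The other 3 members, miR-2284o, miR-2285v and miR-2285ab, reached 10 counts in some libraries but not in all.

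**Figure D1:**
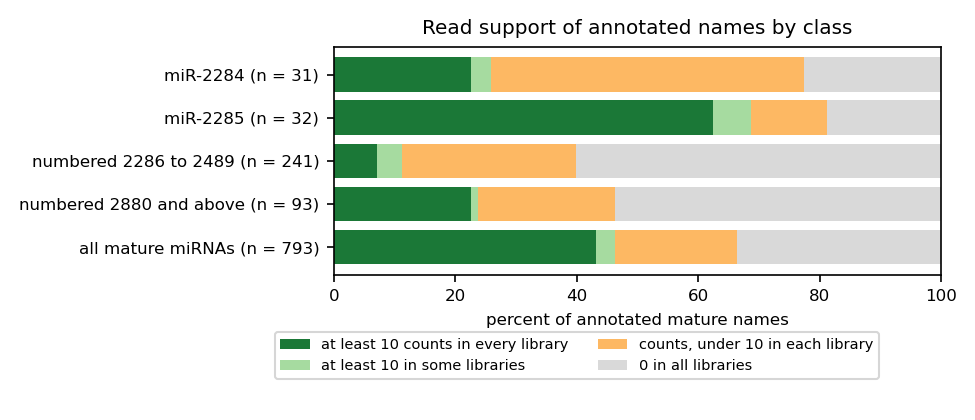
Percent of annotated mature names (x axis) by the counts they reached, for miR-2284, miR-2285, 2 other classes of cattle miRNAs and all names. The part with at least 10 counts in every library is 62.5% for miR-2285 and 22.6% for miR-2284, and 60.2% of the names from miR-2286 to miR-2489 had no count in any library.

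The division also followed the miRBase identifiers, a split chosen after the values were seen. Most miR-2284 names but few miR-2285 names have identifiers that begin with MIMAT0011 or MIMAT0012, so the splits by name and by identifier overlap. Of the miR-2284 names with other identifiers, miR-2284w, miR-2284x, miR-2284y, miR-2284z and miR-2284aa reached 10 counts in every library. miR-2284ab and miR-2284ac did not. Members whose identifiers begin with MIMAT0011 or MIMAT0012 reached 10 counts in every library in 4 of 28 cases (14.3%), and those with other identifiers in 23 of 35 (65.7%). Among all remaining miRNAs of the table with identifiers of the first kind it was 28 of 272 (10.3%). The 4 members of the first kind were miR-2285b, miR-2284h-5p, miR-2285c and miR-2284t-3p. The value of miR-2284h-5p rested on a hairpin of another name, described below.

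The families had no single dominant member, in contrast with a table led by miR-375. The leading name, miR-2284x (MIMAT0017395), took 13.1%, 13.9% and 14.2% of the family counts, a mean of 13.9% ± 0.523 (SD, n = 2). It led by the mean over preparations, whereas miR-2285f took more in T1 (14.8%) and T2 (14.03%) and less in B (10.1%). The 10 leading names held 75.1%, 76.8% and 77.7%. Among these names, miR-2284x and miR-2284y have identical counts, and both enter these shares. The family's most abundant name stood at place 169 among all 793 by mean level.

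miR-2284x had 497, 645 and 614 counts, which is 89.6, 103 and 91.5 CPM. miR-2284y (MIMAT0024579) had exactly these counts, because its highest row lay on the mir-2284x hairpin. The biological library lay between the technical ones for this pair of names. miR-2285f (MIMAT0024581) had 101, 104 and 64.7 CPM, and here the biological library lay below both technical ones. Its mean of 83.6 ± 26.7 CPM and that of miR-2284x, 94.0 ± 3.44 CPM (both SD, n = 2), did not differ beyond their spread.

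A middle group followed at about the level of 50 CPM. miR-2285u had 44.5, 50.2 and 53.1 CPM. miR-2285e had 51.4, 56.9 and 45.9 CPM. miR-2285i had 30.5, 35.7 and 50.5 CPM, with the biological library above both technical ones. The means of miR-2285u and miR-2285e, 50.2 ± 4.02 and 50.04 ± 5.84 CPM, were nearly the same, and that of miR-2285i, 41.8 ± 12.4 CPM (all SD, n = 2), was within its own spread of both.

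Next came miR-2285k with 31.2, 38.6 and 25.9 CPM. miR-2285aa had 26.0, 28.5 and 26.5 CPM, miR-2285b 25.1, 26.9 and 25.04 CPM, and miR-2285ad 24.9, 22.9 and 24.4 CPM. The latter 3 had the smallest SDs over the preparations among the 12 most abundant names, between 0.40 and 0.65 CPM. In each of them T1 and T2, which were averaged first, lay further apart than this SD. The small SDs are thus not a measure of steadiness. miR-2285g (19.3, 17.4 and 16.7 CPM) and miR-2284h-5p (15.3, 21.8 and 16.1 CPM) closed the 12 most abundant names. The remaining names with at least 10 counts in a library ran from miR-2285c at 16.9 CPM down to miR-2285ab at 1.93 CPM on average.

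**Figure D2:**
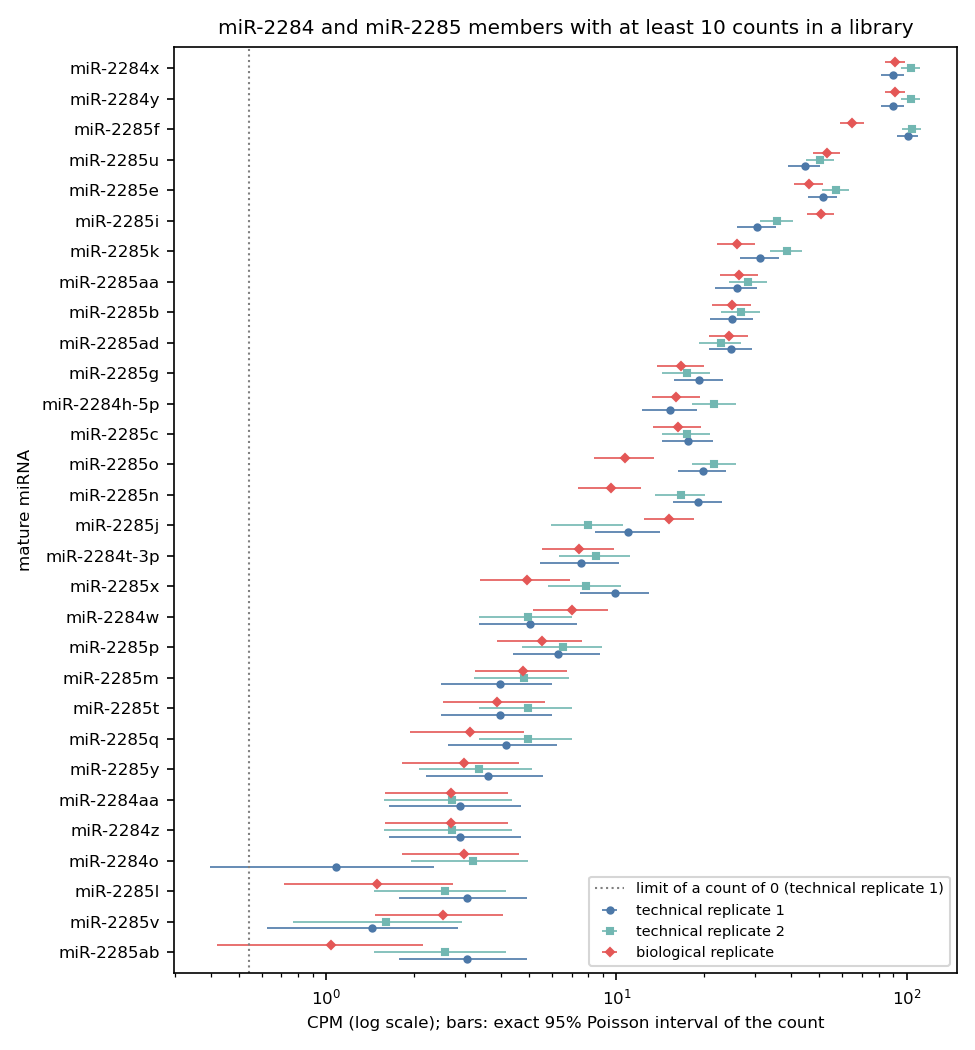
CPM on a log scale (x axis) of the 30 members with at least 10 counts in a library (y axis, ordered by mean), one point per library with the exact 95% Poisson interval of its count; the dotted line is the highest limit of a count of 0, 0.541 CPM. For example, miR-2285f, miR-2285o and miR-2285n have a biological point below the intervals of both technical ones, and miR-2285i and miR-2285j one above them.

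Low members were limited by counting. miR-2284o had 6 counts in T1 and 20 in each of the other libraries, and the exact 95% Poisson interval of the former (2.20 to 13.06 counts) overlapped that of T2, which began at 12.2. Here the technical pair itself lay further apart than T2 and B. Over the 27 members with at least 10 counts in every library, T1 and T2 differed by a median of 0.16 in absolute log2 ratio, and B differed from their mean by 0.20. The same values over the 343 such miRNAs of the table were 0.11 and 0.28. The median level was 15.8 CPM over the 27 members and 91.7 CPM over the 343, so the sets differ in counting error. The largest differences among the members were 0.51 within the technical pair and 0.95 for B, against 1.48 and 1.70 over the 343. By library totals 21 of the 27 members were lower in B, as were 242 of the 343, so this direction was not particular to the families.

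Both arms were named for only 2 hairpins, mir-2284t and mir-2284h, and in both a single arm had counts. miR-2284h-5p also had a row on mir-2284y-4, described below. miR-2284t-3p had 42, 53 and 50 counts, while miR-2284t-5p from the same hairpin had 0 in each, which allows up to 0.541, 0.480 and 0.447 CPM. On the mir-2284h hairpin the 5' arm had 2, 3 and 2 counts and the 3' arm 0. A count of 0 allows up to 3, so these arms could not be told apart in any library. No arm was named for the other members.

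Several hairpins carried the same mature name for 16 of the 63 members, and their rows held different counts in nearly all of them. The table gave such members 68 rows. Of the 15 with counts, 14 had rows that lay more than 5% apart in counts summed over the libraries, and only miR-2285j had rows within 5% (213 counts on either hairpin). Among the other miRNAs of the table with several rows and counts, 9 of 49 lay further apart than 5%. Restricted to names with at least 100 counts, the rows lay within 5% for 1 of 11 members and for 32 of 39 other miRNAs. The level of a member thus depended on which row was read.

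For miR-2284y the gap concerned the leading level. Its 7 hairpins of the same name had between 329 and 362 counts over the 3 libraries, whereas its row on mir-2284x had 1756, which is 5.34 times the lowest. On mir-2284y-2, the highest of its own hairpins together with mir-2284y-5, it had 16.8, 23.03 and 18.6 CPM. Read from its own hairpins, miR-2284y thus left the leading place and stood near miR-2285g.

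The rows of miR-2285k fell into 2 sets. On mir-2285k-1 and mir-2285k-4 it had 170 and 169 counts in all, and on mir-2285k-2, mir-2285k-3 and mir-2285k-5 it had 573, 574 and 588. miR-2285e had 369 counts on mir-2285e-1 and 949 on mir-2285e-2. miR-2284z was at 16 counts on mir-2284z-5 and between 46 and 51 on its 6 other hairpins. The rows of miR-2285b, miR-2285n and miR-2285m lay closer, within a ratio of 1.06, 1.07 and 1.15 of the highest to the lowest, and those of miR-2285g and miR-2285o within 1.22 and 1.41.

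Names also crossed between hairpins. 12 rows of 6 members lay on a hairpin named for another member, against 14 of the 804 rows of other miRNAs. miR-2284aa had 7 of its 11 rows on the mir-2284z hairpins, with counts equal to those of miR-2284z, up to 51, while its own 4 hairpins gave it 22 or 23. miR-2284h-5p had 7 counts on its own hairpin and 329 on mir-2284y-4, the count that miR-2284y had there too. miR-2285f had 1308 counts on mir-2285z, a hairpin whose own mature strand miR-2285z had 0, beside 1615 and 1644 on its own. miR-2285u had 917 counts on its own hairpin and 283 on mir-2285o-3, where miR-2285o had 285. miR-2284e had 8 counts on its own hairpin and 6 on mir-2284f. Counted by hairpins of the same name only, an alternative chosen after seeing the data, the family share was 0.0586%, and it was 0.0548% when names linked by a shared hairpin were counted once.

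**Figure D3:**
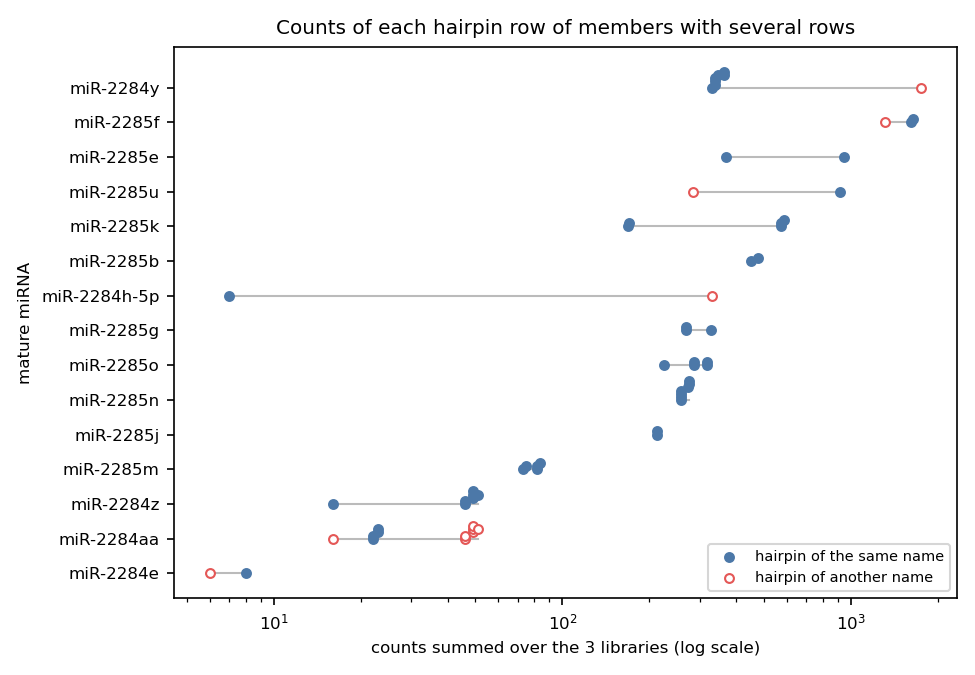
Counts summed over the 3 libraries (x axis, log scale) for each hairpin row of the 15 members with several rows and counts (y axis); filled points are hairpins of the same name, open points hairpins of another name, and points of nearly equal counts are offset upward. miR-2284y lies at 329 to 362 on its own hairpins and at 1756 on mir-2284x, and miR-2284h-5p at 7 and 329.

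The annotation placed some of these hairpins on top of each other. Of the 101 hairpins, 100 were found by name in the RefSeq annotation of the ARS-UCD2.0 assembly, which differs from the UMD3.1 build of the counts, so only names and neighbours are given. Of these, 68 (68.0%) lay within the span of a protein-coding gene, against 446 of 698 other matched hairpins (63.9%). mir-2284x lay within TIAM1, a gene for an activator of the GTPase Rac, and mir-2285f-1 within TBK1, a kinase of innate immune signalling. mir-2285e-2 lay within AKAP12, which encodes a scaffold for protein kinase A. mir-2285i, mir-2285u and mir-2285f-2 lay within no protein-coding gene. The annotation table gives no strand, so which hairpins run in the direction of the gene around them was not determined.

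Another miRNA hairpin overlapped 12 of the 100 (12%), against 47 of the 698 others (6.70%). In 5 pairs both hairpins belonged to the families, 4 of them joining a miR-2284 with a miR-2285 hairpin. mir-2284y-2 lay over mir-2285u. mir-2284y-4 overlapped mir-2285o-3, both within RBBP8, a DNA repair gene, and mir-2284h overlapped mir-2285o-5. mir-2284z-6 overlapped mir-2285y within PLEKHA5, and mir-2285q overlapped mir-2285z within SREK1. Both sides of the first pair had reads, with 93, 144 and 125 counts of miR-2284y and 247, 314 and 356 of miR-2285u. At mir-2284h the counts were 2, 3 and 2 against 110, 136 and 72 of miR-2285o on the other hairpin. The overlapping hairpins of these pairs thus held different counts. Whether they shared reads was not tested, and no source used here says whether the counting used strand.

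The labels allow a single contrast, the biological replicate against the technical pair. Of the 63 members, 30 passed the filter of at least 10 counts in 1 or more libraries, and 5 of these 30 differed: miR-2285i and miR-2285j were higher and miR-2285o, miR-2285n and miR-2285f were lower in B (quasi-likelihood test of edgeR, with p-values adjusted by Benjamini-Hochberg over 367 miRNAs and called below 0.05). Over all 367 tested, 37.9% were called, 17.7% higher and 20.2% lower. The share of members called was 16.7%, and its difference from that background was not tested. Members were also lower in level. Among names with at least 10 counts in every library, the median was 15.8 CPM for members and 91.7 CPM for all miRNAs. The part of this gap in the share called was not tested. None of the 8 miR-2284 names tested passed in edgeR or in DESeq2. The 8 are not all separate, since miR-2284x and miR-2284y have identical counts, as do miR-2284z and miR-2284aa. With identical names kept once, 28 members were tested and the same 5 were called (edgeR). At an unadjusted p below 0.05, 1 of the 8 was counted in edgeR, miR-2284w, and limma on the deposited log2 table called it as well. The median log2 fold change was 0.07 over the members and 0.01 over all miRNAs tested, and the former was -0.11 when scaled by library totals and not by TMM.

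miR-2285i had 169, 223 and 339 counts, and the biological library was above both technical ones. It was higher by 0.79 ± 0.16 (SE) on the log2 scale (edgeR, adjusted p = 5.3e-06), and passed in each of 10 alternatives, with adjusted p-values from 2.3e-07 to 0.029. miR-2285j had 61, 50 and 102 counts and was higher by 0.87 ± 0.23 (SE, edgeR, adjusted p = 0.00095). It did not pass when scaled by library totals (0.69, adjusted p = 0.075), in DESeq2 (adjusted p = 0.23), or when 10 counts were required in every library (adjusted p = 0.056).

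Among the lower members, miR-2285f had 559, 651 and 434 counts, a log2 fold change of -0.48 ± 0.14 (SE, edgeR, adjusted p = 0.0020). miR-2285o had 110, 136 and 72 counts, with -0.77 ± 0.23 (SE, edgeR, adjusted p = 0.0027). miR-2285n had 106, 104 and 64 counts, with -0.72 ± 0.24 (SE, edgeR, adjusted p = 0.0087). In all 3 the biological library lay below both technical ones. DESeq2 called none of the 3, with adjusted p-values of 0.061 for miR-2285f, 0.18 for miR-2285o and 0.26 for miR-2285n, and miR-2285n also did not pass when 10 counts were required in every library (adjusted p = 0.065). The lists of smooth muscle and fibroblast, endothelial and leukocyte miRNAs given above had their lowest shares in the same library. The endocrine and erythrocyte lists had their highest shares there, beside the higher miR-2285i and miR-2285j. The part of these lists was not tested.

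The other 25 members tested did not pass. Their log2 fold changes ran from -1.23 ± 0.46 for miR-2285ab, at 17, 16 and 7 counts, to 0.91 ± 0.40 (both SE) for miR-2285v, at 8, 10 and 17 counts. miR-2285u (0.34 ± 0.15, SE) and miR-2284w (0.67 ± 0.29, SE) missed the threshold with adjusted p-values of 0.058 and 0.060 (edgeR). The leading name miR-2284x had 0.11 ± 0.13 (SE) and an adjusted p of 0.59 (edgeR). Only T1 and T2 informed the residual spread, with 1 degree of freedom per miRNA. The main fit replaced it by a spread pooled over the miRNAs tested (infinite prior degrees of freedom). With 3.7 prior degrees of freedom, under the filter of 10 counts in every library, miR-2285i had an adjusted p of 0.017 (edgeR). In the main fit it was 5.3e-06. The p-values set these libraries against each other and not animals. TMM moved the biological library by -0.18 in log2 scaling relative to library totals, and the split of called members became 1 higher and 3 lower without it.

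**Figure D4:**
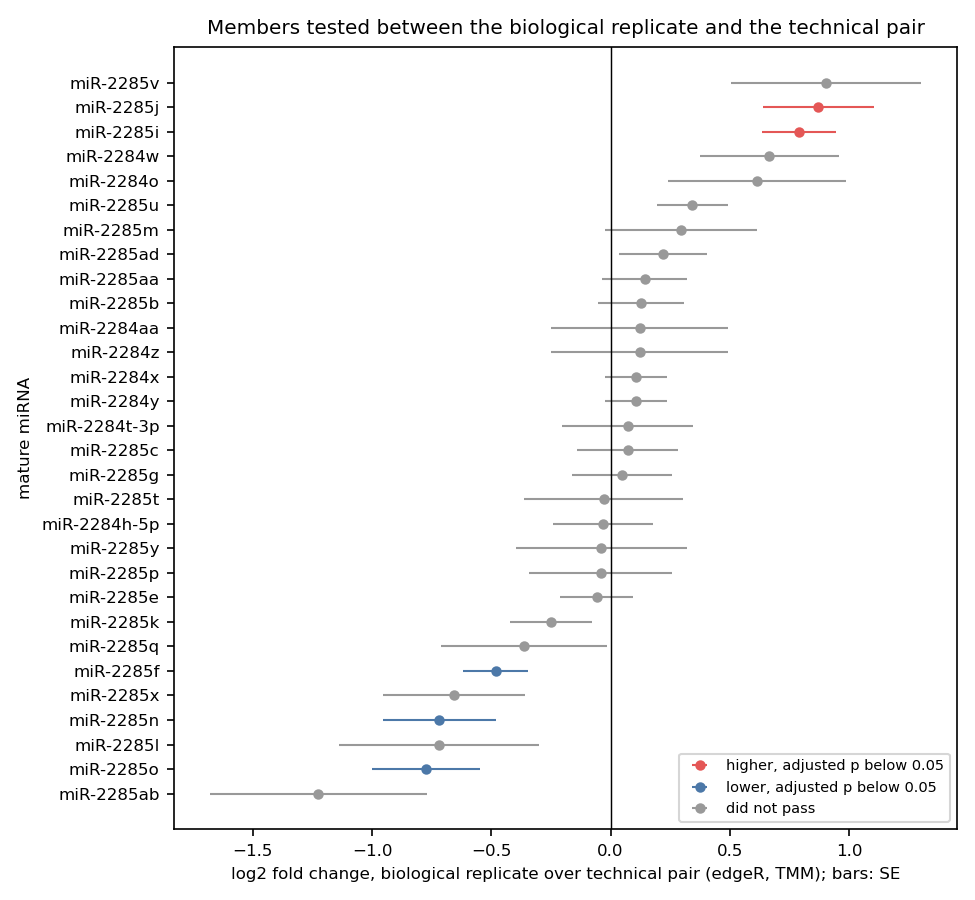
Log2 fold change of the biological replicate over the technical pair (x axis, edgeR with TMM, bars are SE) for the 30 members tested (y axis). The 2 members higher at an adjusted p below 0.05 are miR-2285j and miR-2285i, at 0.87 and 0.79, and the 3 lower ones lie between -0.77 and -0.48.

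Read row by row, miR-2285u was the member whose rows differed in their call. All 7 rows of miR-2285n were lower (log2 fold changes from -0.71 to -0.68), as were the 5 rows of miR-2285o (-0.90 to -0.73) and the 3 of miR-2285f (-0.59 to -0.45), including that on mir-2285z. Both rows of miR-2285j were higher, at 0.88. Whether these rows share reads was not tested, so they cannot be taken as independent.

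The rows of miR-2285u went 2 ways. On its own hairpin miR-2285u had 247, 314 and 356 counts, with a log2 fold change of 0.35 ± 0.16 that did not pass (edgeR per row, adjusted p = 0.066). On mir-2285o-3 it had 100, 123 and 60 counts and was lower, by -0.89 ± 0.27 (SE, edgeR per row, adjusted p = 0.0039), next to miR-2285o at -0.90 on that hairpin. The biological library was thus the highest on one hairpin and the lowest on the other. The row on mir-2285o-3 held nearly the counts of miR-2285o there (102, 123 and 60), so it cannot be taken as a separate measure of miR-2285u. Whether these 2 rows share reads was not tested.

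miR-2284aa had log2 fold changes of -1.22 ± 0.46 on mir-2284aa-3 and mir-2284aa-4, at 9, 10 and 4 counts, and of 0.13 ± 0.36 (SE) on mir-2284z-7, at 16, 17 and 18 counts. None of these passed (edgeR per row, adjusted p-values of 0.18 and 0.88). For miR-2285k the values were -0.69 and -0.68 on the 2 hairpins with few counts and -0.28 to -0.24 on the 3 with more, and no row passed (lowest adjusted p of 0.063, edgeR per row). miR-2284y had -0.04 to 0.09 on its own hairpins and 0.11 on mir-2284x, so its 5.34-fold gap in level came with little difference in fold change.

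**Figure D5:**
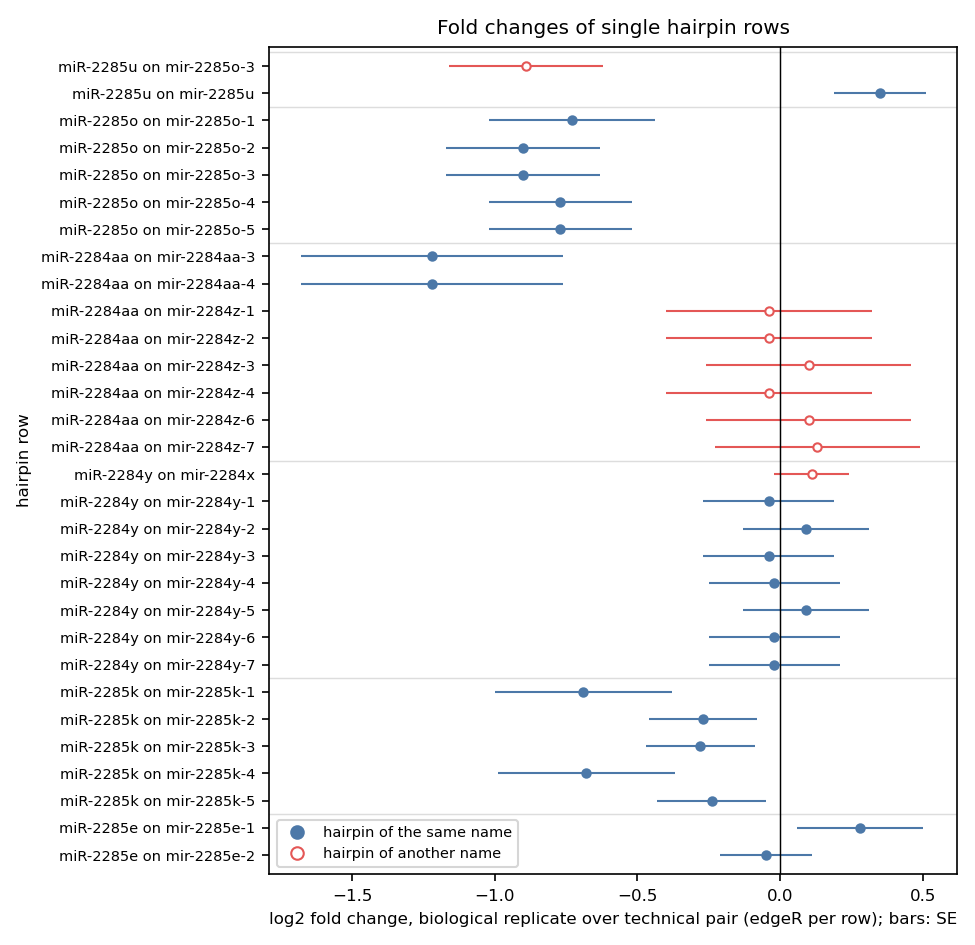
Log2 fold change of the biological replicate over the technical pair (x axis, edgeR fitted on single rows, bars are SE) for the rows of 6 members that had at least 10 counts in a library (y axis); filled points are hairpins of the same name, open points hairpins of another name. miR-2285u lies at 0.35 on its own hairpin and at -0.89 on mir-2285o-3, beside the rows of miR-2285o.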

How the data were processed

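Total RNA of purified vesicles was made into libraries from 500 ng with the NEBNext small RNA set, per the labels' protocols. The deposited table holds raw read counts and the authors' CPM, which equal each count over its column total to within 0.0050. A second deposited table holds log2 values, log2(CPM + 0.1) of 459 rows as tested on the file, and 77 of its rows are members. The build UMD3.1 and edgeR come from the submitters' processing notes. For aligner, counter and miRBase release, versions and names were not given in these sources.

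The highest row stood for each mature name. The contrast used edgeR 4.0.16 (TMM, quasi-likelihood, R 4.3.3) on all 367 names with at least 10 counts in a library, Benjamini-Hochberg at 0.05, each SE being derived from the fold change and its F value. The code was tested on simulated data. Alternatives used DESeq2 1.42.0, limma 3.58.1, other scalings, filters and hairpin rows. Members, classes and lists were chosen with earlier results of these data known. Named members are the 12 most abundant, those called (at most 15), and those with differing rows or shared counts; further ones were named after their values were seen. Where nothing names separate animals, p-values measure only the spread between these samples.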

Additional observations from a re-analysis of the deposited data

How the results depend on the processing

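The family share became 0.0994% with hairpin rows summed, 0.1116% without miR-375 in the total, 0.0584% with identical names counted once, 0.0586% on hairpins of the same name and 0.0548% with linked names counted once, and ranged from 0.0663% to 0.0713% on leaving out each library. The number of members with 10 counts in every library stayed within 1.5 times, and was 27 to 29 with a library left out. Of the 5 calls, DESeq2 kept 1 (miR-2285i) and the filter of 10 counts in every library 3, and limma on the deposited log2 table called 10, all 5 among them; the cause was not tested. The leading name's share of family counts was 17.44% with rows summed (miR-2285f leading), 16.1% on hairpins of the same name, 16.19% with identical names counted once, and 13.68% to 14.39% with a library left out, the latter without B, where miR-2285f led. A pair of libraries leaves no residual degree of freedom, so leaving out a technical library gave fold changes and no test. The 5 called members kept their sign under every alternative run. miR-2285j had 0.65 without T2 and 1.11 without T1, and miR-2284h-5p, not called, 0.251 and -0.254.

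Under other scalings or rows the sign turned for 8 named members, none of them called, in 19 values with adjusted p of 0.16 or more. With library totals these were miR-2284x and miR-2284y (-0.077), miR-2285aa (-0.039), miR-2285b (-0.054), miR-2285g (-0.134), and miR-2284aa and miR-2284z (-0.060). With limma they were -0.040, -0.004, -0.020, -0.103 and -0.029 in the same order. With rows summed they were miR-2285e (0.043), miR-2285g (-0.032), miR-2284aa (-0.252) and miR-2284z (-0.019), and on hairpins of the same name miR-2284aa (-1.243). No paired analysis was possible because the groups share only 1 replicate number. The grouping by seed was not run because mature sequences were not used here. Depth limits the members under 10 counts, whose differences were not detectable. Alternatives by hairpin name, and identical names in the tests, were chosen after seeing the data.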
